A study of Mus musculus with 6 samples.

Results

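The Slc25 genes encode the mitochondrial carriers, and 40 of them were described here in the livers of laboratory and wild mice. They were taken as every gene name made of Slc25a and a number that was listed once for each mouse, among 47256 gene names listed once in all, out of 47 such Slc25 names. The remaining 7 were listed more than once for at least 1 mouse and were left out of every comparison. The laboratory group was 3 adult males of the inbred strain C57BL/6, and the wild group was 1 adult male and 2 adult females. All 6 livers were untreated, were frozen without fixation, and gave 1 RNA-Seq library each. The laboratory mice were killed when they arrived from the breeder, while the wild mice had been trapped at different places in New South Wales and then kept for some months under ordinary husbandry. Strain, origin, housing and part of the difference in sex therefore separate the groups together and cannot be told apart. In whole liver, fewer cells of a type and less RNA per cell cannot be told apart either.

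Carriers of this family sit in the inner mitochondrial membrane, with a few exceptions in the outer membrane or in peroxisomes, and exchange small molecules between the matrix and the cytosol. Each is built from repeats of the same short membrane motif and works by opening to either side of the membrane in turn. In hepatocytes they join the cytosolic and matrix steps of the urea cycle, the malate-aspartate shuttle, gluconeogenesis, fatty acid oxidation and ATP export.

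Both deposited measures were used. FPKM is the number of fragments assigned to a gene, scaled for transcript length and for the mapped reads of the library, so that levels can be compared between genes. The zFPKM score is log2 FPKM less the mode of the active genes of that mouse, divided by the SD of their distribution. A difference of 1 in zFPKM is therefore 1 such SD, which was between 2.51 and 3.12 log2 units in these mice. The mode lay between 0.491 and 2.51 log2 FPKM and was highest in laboratory mouse 3, at 2.12, and in wild mouse 1, at 2.51. Counts were not analysed here, so the depth behind each value is unknown. Hepatocyte genes were abundant in all mice (Ttr between 7137 and 16515 FPKM), though 3 of 6 tested were lower and 1 higher in wild mice in the limma fit used below. Genes of skeletal muscle, adipose tissue and testis reached at most 1.34 FPKM. None of 6 Kupffer cell genes and none of 3 tested acinar pancreas genes was called, and 1 of 5 cholangiocyte genes was lower (Spp1). The Kupffer cell genes summed to 28.0 to 36.05 FPKM in the laboratory mice, but spread from 11.5 to 109.6 FPKM among the wild mice. Y-linked genes were near 0 in the wild females alone.

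The summed FPKM of the 40 carriers was 809, 911 and 869 in laboratory mice 1, 2 and 3, against 1954, 2194 and 1899 in wild mice 1, 2 and 3. Every wild mouse lay above every laboratory mouse, as it also did for 43.7% of all 18628 genes tested, each taken singly. The FPKM of all genes summed to less in the wild mice. As a percentage of all FPKM, the carriers made up 0.125 to 0.140% in the laboratory mice and 0.345 to 0.385% in wild mice. The same 4 genes were highest in every mouse and held 58.8 to 66.6% of the sum: Slc25a39, Slc25a47, Slc25a5 and Slc25a3. At the other end, Slc25a54 was listed at 0 in all mice and Slc25a41 in all but wild mouse 2, where it had 0.0678 FPKM. Slc25a43 and Slc25a53 did not exceed 0.155 and 0.0654 FPKM. At the zFPKM threshold of 2 that the study set for high expression, between 2 and 4 carriers per mouse were high. Slc25a39 was high in all 6 mice, and Slc25a3 and Slc25a5 in all 3 wild mice, while between 31 and 34 carriers per mouse lay between -2 and 2.

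**Figure D1:**
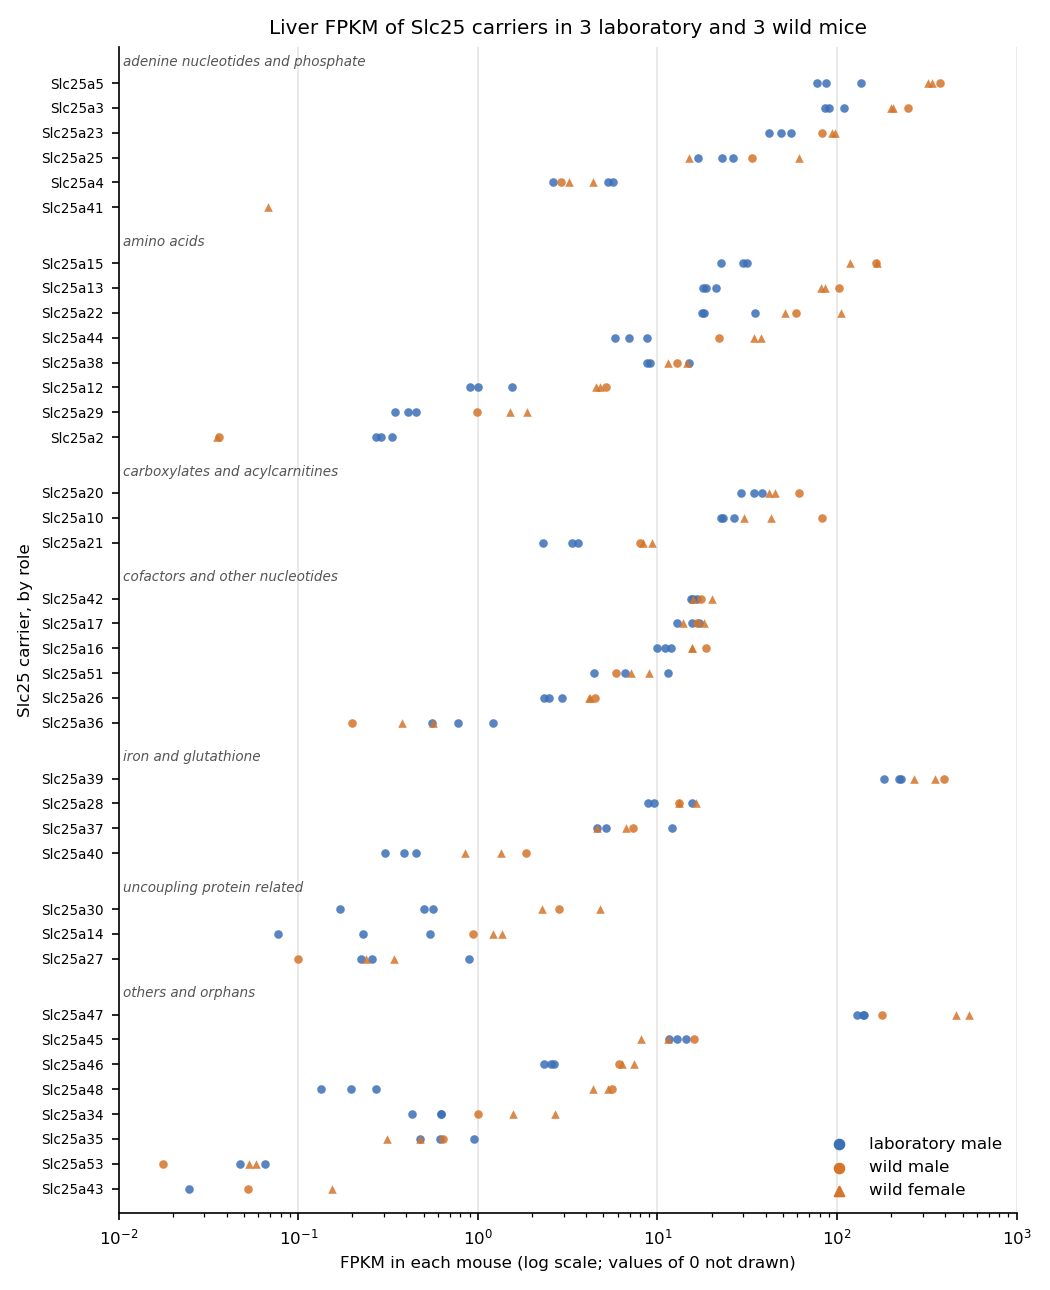
FPKM (log scale) of Slc25 carriers above 0 in at least 1 mouse, grouped by what they carry. Circles are males and triangles females, blue laboratory and orange wild, with 1 point per mouse and values of 0 not drawn. Slc25a48, Slc25a15, Slc25a13 and Slc25a44 have all wild mice to the right of all laboratory mice, and Slc25a2 has them to the left.

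Among the 38 carriers that passed the filter (zFPKM above -3 in at least 3 of 6 mice), 6 differed between the groups. Slc25a15, Slc25a48, Slc25a13, Slc25a5 and Slc25a44 were higher in wild mice and Slc25a2 was lower, by limma on zFPKM at an adjusted p under 0.05, which is what called means here. The 5 higher carriers were 13.2% of those tested, beside 7.28% of all 18628 genes tested, and the 1 lower carrier was 2.63%, beside 7.17%. The median difference, wild minus laboratory, was 0.08 zFPKM over the 38 carriers and -0.00488 over all genes tested. No carrier was called by limma when sex was a covariate (9 had an unadjusted p under 0.05), and 1 was called without the mean-variance trend of limma, Slc25a2. All 6 kept their direction in all 19 alternative analyses.

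These counts depended on the scale. On plain FPKM, every wild mouse was above every laboratory mouse for 22 of the 38 carriers (57.9%, beside 43.7% of all genes) and below for 1 (2.63%, beside 12.1%). On zFPKM these were 9 carriers above (23.7%, beside 14.1%) and 5 below (13.2%, beside 14.1%). The median of all genes was itself shifted by 0.47 on log2(FPKM + 0.1). Once each mouse was centred on its own median on that scale, 10 carriers were called higher (26.3%, beside 18.6%) and 10 lower (26.3%, beside 28.6%). All 6 of the first calls were among them. The median difference was then -0.27 over all genes tested and -0.05 over the 38 carriers, so centring turned the shift of all genes rather than removing it. The 10 higher were Slc25a5, Slc25a12, Slc25a13, Slc25a15, Slc25a21, Slc25a29, Slc25a30, Slc25a44, Slc25a46 and Slc25a48. The lower carriers included Slc25a2, Slc25a4, Slc25a17, Slc25a27, Slc25a35, Slc25a36, Slc25a42, Slc25a45 and Slc25a53.

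**Figure D2:**
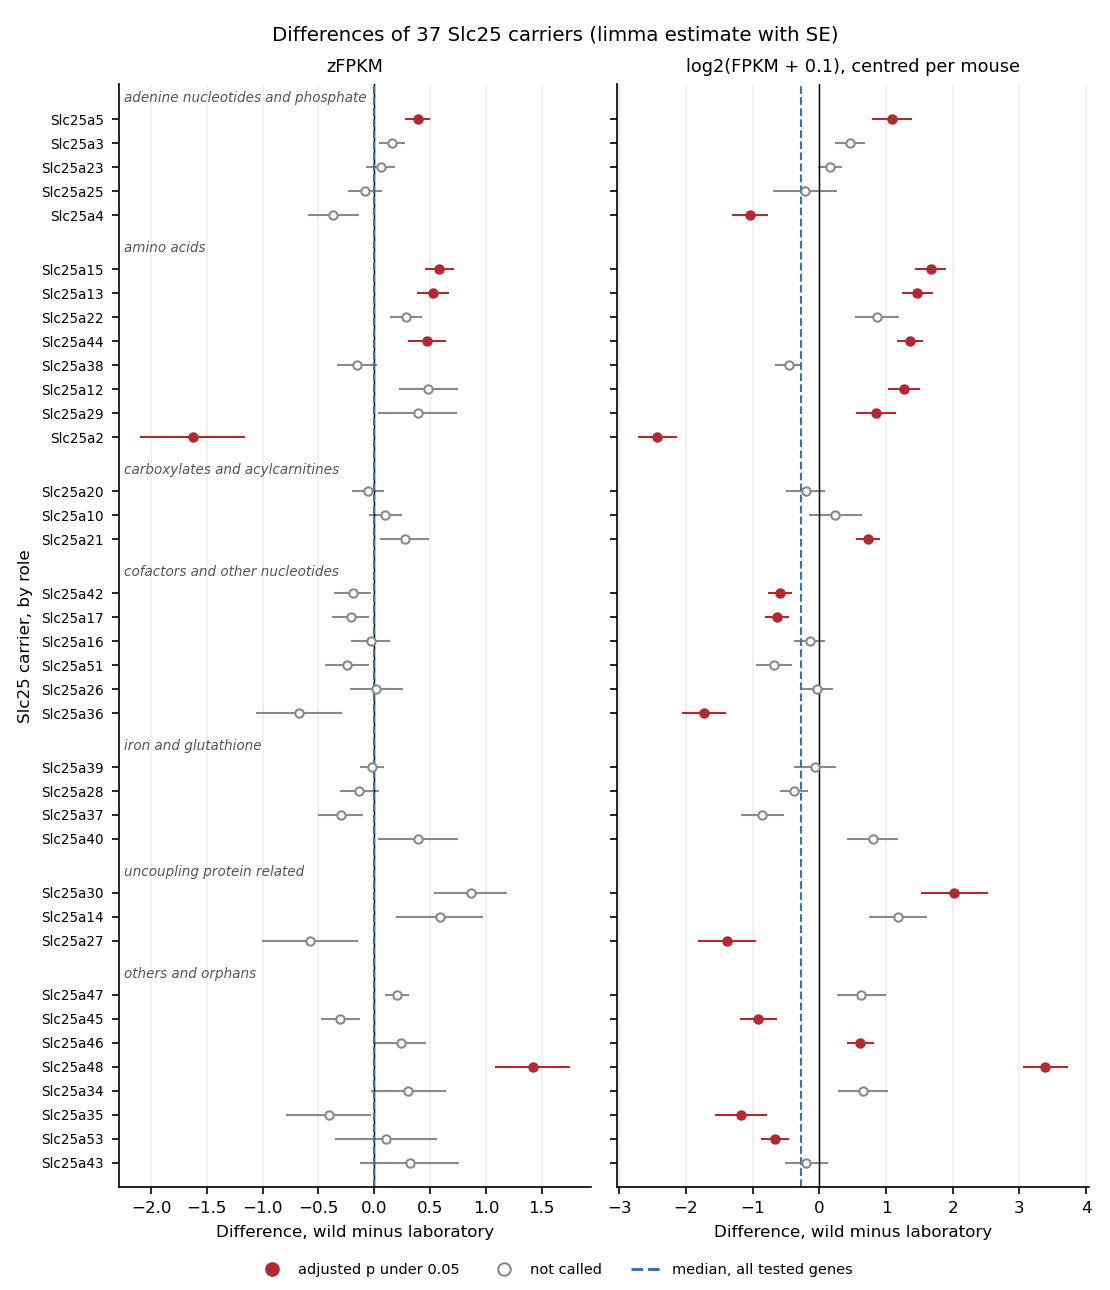
Difference between wild and laboratory mice for 37 of the tested carriers, with the limma estimate as a point and its SE as a bar. The left panel is on zFPKM and the right panel on log2(FPKM + 0.1) centred on the median of each mouse; filled red points have an adjusted p under 0.05, 6 on the left and 19 on the right, and the dashed line is the median of all tested genes.

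Of the 8 carriers of amino acids, all tested, 3 were higher in wild mice and 1 lower, beside 7.28% and 7.17% of all genes. Their median difference was 0.43 zFPKM, beside -0.00488 over all genes tested, and none of them was called with sex as a covariate. Slc25a15 (chr8:22375550-22398621, GRCm38.p6), the ornithine carrier that links the cytosolic and matrix parts of the urea cycle, had 22.5, 30.0 and 31.7 FPKM in laboratory mice 1, 2 and 3. In the wild mice it had 164, 167 and 118 FPKM. The groups did not overlap, and the lowest wild mouse was far above the highest laboratory mouse. The means were 28.1 ± 4.86 FPKM and 150 ± 27.3 FPKM (SD, n = 3 each), a ratio of 5.34. On zFPKM it was 0.58 higher in wild mice (SE 0.131, limma adjusted p = 0.000217), and it was called in 15 of the 19 alternatives. Those without the call were no filter, no trend, sex as a covariate and males only.

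Slc25a2, the second ornithine carrier, moved the other way and at a far lower level. It had 0.331, 0.289 and 0.269 FPKM in the laboratory mice and 0.0362, 0 and 0.0351 FPKM in wild mice 1, 2 and 3. All wild mice were below all laboratory mice, and wild mouse 2 was listed at 0, so no ratio is given. With that value set to -3, the difference was -1.63 zFPKM (SE 0.470, limma adjusted p = 0.00667). The call was made in 13 of the 19 alternatives, with limma adjusted p from 0.000687 to 0.450 over all of them. It was lost with that floor at -5 (difference -2.29, limma adjusted p = 0.0566) and without laboratory mouse 1 or wild mouse 2. No filter, sex as a covariate and males only also gave no call.

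Slc25a13 (chr6:6041218-6217304), known as citrin, exports aspartate in exchange for glutamate and is the liver form of the carrier in the malate-aspartate shuttle. Its FPKM was 18.7, 21.1 and 17.8 in laboratory mice, against 102, 81.0 and 85.2 in wild mice. The 3 laboratory mice were close together and all wild mice were well above them, at means of 19.2 ± 1.69 and 89.5 ± 11.2 FPKM (SD, n = 3 each) and a ratio of 4.66. The difference was 0.52 zFPKM (SE 0.140, limma adjusted p = 0.00276), and it was called in 14 of the 19 alternatives. Those without the call were no filter, no trend, sex as a covariate, males only and the analysis without wild mouse 3.

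Its paralog Slc25a12, or aralar, the form of muscle and brain, had 1.004, 0.908 and 1.56 FPKM in the laboratory mice and 5.18, 4.53 and 4.79 FPKM in wild mice. The groups again did not overlap, at a level far below that of Slc25a13. The difference of 0.48 zFPKM did not pass the test (SE 0.264, limma adjusted p = 0.236), and the adjusted p ranged from 0.000711 to 0.658 over the alternatives.

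Slc25a44 (chr3:88410494-88425141) carries branched-chain amino acids into the matrix. It had 5.77, 6.97 and 8.76 FPKM in the laboratory mice and 22.0, 34.4 and 37.8 FPKM in wild mice. All wild mice were above the laboratory mice and the wild male was the lowest of them. The means were 7.17 ± 1.51 and 31.4 ± 8.31 FPKM (SD, n = 3 each), a ratio of 4.38, and the difference was 0.48 zFPKM (SE 0.170, limma adjusted p = 0.0392). With sex as a covariate, or in males only, the difference was 0.15 zFPKM, beside a median of -0.27 over all genes tested. The call was made in 9 of the 19 alternatives, and was lost with the floor at -5 and when any 1 of laboratory mice 1, 2 and 3 or wild mice 2 and 3 was left out.

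Slc25a22, a glutamate carrier, had 18.2, 17.8 and 35.0 FPKM in the laboratory mice and 59.1, 106 and 51.2 FPKM in wild mice. Laboratory mouse 3 was high for its group and wild mouse 2 for its own, but the groups did not overlap. Its difference of 0.28 zFPKM did not pass the test (SE 0.141, limma adjusted p = 0.179). Slc25a29, which carries basic amino acids, lay at 0.347 to 0.455 FPKM in the laboratory mice and 0.985 to 1.88 FPKM in wild mice, and Slc25a38, which brings glycine in for haem synthesis, at 8.77 to 15.0 and 11.5 to 14.6 FPKM. Neither was called on zFPKM.

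The start regions of 4 of the 5 carriers that were called higher in wild mice are shown, without that of Slc25a44. The genes were picked by that call, and shared regulation was not tested. Each start region runs from 250 bases before to 50 bases after an annotated start in RefSeq on GRCm38.p6. They are Slc25a15 (chr8:22398572-22398871, minus strand), Slc25a13 (chr6:6217124-6217423, minus strand), Slc25a5 (chrX:36795347-36795646, plus strand) and Slc25a48 (chr13:56438105-56438404, plus strand). Capitals mark the motifs that were found, read on either strand: GC boxes (GGGCGG) in Slc25a15, Slc25a5 and Slc25a48, and an E-box (CACGTG) and a CCAAT box in Slc25a13.
Slc25a15: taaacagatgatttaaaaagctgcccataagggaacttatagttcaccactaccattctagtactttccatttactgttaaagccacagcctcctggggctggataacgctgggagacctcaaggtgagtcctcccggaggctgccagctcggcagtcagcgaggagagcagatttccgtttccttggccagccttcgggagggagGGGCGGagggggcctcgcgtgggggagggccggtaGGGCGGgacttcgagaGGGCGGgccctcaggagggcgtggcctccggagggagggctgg
Slc25a13: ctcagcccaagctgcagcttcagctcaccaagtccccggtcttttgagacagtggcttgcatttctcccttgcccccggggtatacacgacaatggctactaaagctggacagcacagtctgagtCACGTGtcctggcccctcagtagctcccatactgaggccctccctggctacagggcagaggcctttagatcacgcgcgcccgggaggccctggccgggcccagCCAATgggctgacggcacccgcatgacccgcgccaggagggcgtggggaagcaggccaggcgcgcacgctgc
Slc25a5: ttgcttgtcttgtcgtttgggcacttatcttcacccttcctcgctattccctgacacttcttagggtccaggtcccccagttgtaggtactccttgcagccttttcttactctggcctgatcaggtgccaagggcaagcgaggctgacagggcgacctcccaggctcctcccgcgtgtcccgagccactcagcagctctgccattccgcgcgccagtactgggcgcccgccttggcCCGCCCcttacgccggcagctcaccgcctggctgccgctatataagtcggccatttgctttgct
Slc25a48: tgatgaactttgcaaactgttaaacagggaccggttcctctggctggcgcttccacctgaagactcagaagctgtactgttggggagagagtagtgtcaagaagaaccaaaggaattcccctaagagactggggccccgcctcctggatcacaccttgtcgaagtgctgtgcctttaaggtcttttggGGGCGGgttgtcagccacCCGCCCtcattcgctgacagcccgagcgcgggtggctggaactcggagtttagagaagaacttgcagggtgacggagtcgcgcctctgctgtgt
A GC box was present in the windows of Slc25a15, Slc25a48 and Slc25a5 but not in that of Slc25a13. Start regions were found for 30 of the 40 carriers, and the start nearest the annotated upstream end of each gene was used. For all genes the first listed start was used, without regard to expression, so the windows were not chosen alike. Of these, 25 held a GC box (83.3%, beside 35.9% of 27025 windows of all genes), 14 a CCAAT box (46.7%, beside 37.9%) and 3 an E-box (10%, beside 7.24%). The letters TATAAA were in none of the 30, beside 14.2% of all windows. The median GC content was 60.2% for the carriers and 52.7% for all genes. The shares for the other motifs searched, on both strands, were 3.33% of carriers and 1.88% of all windows for TGACGTCA, 6.67% and 8.47% for TTCNNNGAA, and 3.33% and 10.8% for TTGCNNAA. For CAAAGTCCA they were 0% and 0.477%, and for AGGTCA 13.3% and 16%. No motif contains another, each window was counted once per motif, and a match is a description of the letters only.

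Of the carriers of adenine nucleotides and phosphate, 5 were tested and 1, Slc25a5, was higher in wild mice, beside 7.28% of all genes. Slc25a5 (chrX:36795597-36798808) is the widely expressed ADP/ATP carrier, which sends ATP out of the matrix in exchange for ADP. It had 86.4, 136 and 77.0 FPKM in the laboratory mice and 375, 321 and 338 FPKM in wild mice. The wild mice were close together and all above the laboratory mice, among which mouse 2 was highest. The means were 99.8 ± 31.7 and 345 ± 27.3 FPKM (SD, n = 3 each), a ratio of 3.45, and the difference was 0.39 zFPKM (SE 0.113, limma adjusted p = 0.00711). The call was made in 12 of the 19 alternatives, with limma adjusted p from 0.000578 to 0.450 over all of them. It was lost on zFPKM centred on each mouse's median (difference 0.35, limma adjusted p = 0.167) and without wild mouse 1 or wild mouse 3. No filter, no trend, sex as a covariate and males only also gave no call. A processed copy named Slc25a5-ps was listed at no more than 0.242 FPKM in any mouse, and how reads shared between copies were assigned is not given in the sources used here.

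Slc25a4, the ADP/ATP carrier of heart and skeletal muscle, had 2.64, 5.27 and 5.63 FPKM in the laboratory mice and 2.90, 4.39 and 3.20 FPKM in wild mice. These values overlapped, and the difference was -0.37 zFPKM (SE 0.231, limma adjusted p = 0.329). Slc25a3, which imports the phosphate used to make ATP, had 85.9, 90.3 and 109 FPKM in the laboratory mice and 249, 206 and 199 FPKM in wild mice. All wild mice were above all laboratory mice, at a ratio of 2.29 between the means, but the difference of 0.16 zFPKM was not called (SE 0.116, limma adjusted p = 0.428).

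The calcium-regulated carriers of ATP-Mg and phosphate set the size of the matrix adenine nucleotide pool. Slc25a23 had 42.0, 55.5 and 48.9 FPKM in the laboratory mice and 82.3, 93.6 and 97.3 FPKM in wild mice. Slc25a25 had 16.9, 23.0 and 26.3 FPKM in the laboratory mice and 33.5, 61.1 and 14.9 FPKM in wild mice. The first did not overlap between the groups and the second did, with wild mouse 3 the lowest of all 6. Their differences were 0.06 and -0.08 zFPKM and neither was called (limma adjusted p = 0.834 and 0.801).

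The carrier with the largest ratio between the groups was Slc25a48 (chr13:56437960-56472367), which carries choline into the mitochondrion. It had 0.197, 0.272 and 0.134 FPKM in the laboratory mice and 5.59, 5.32 and 4.38 FPKM in wild mice. All wild mice, the male included, were far above all laboratory mice. The means were 0.201 ± 0.0689 and 5.10 ± 0.637 FPKM (SD, n = 3 each), a ratio of 25.4. On zFPKM the difference was 1.42 (SE 0.334, limma adjusted p = 0.000468), and it was called in 15 of the 19 alternatives and in every analysis that left out 1 mouse. The 4 alternatives without the call were no filter, no trend, sex as a covariate and males only.

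Slc25a47, a carrier found mainly in liver, had 129, 139 and 142 FPKM in the laboratory mice and 178, 542 and 458 FPKM in wild mice. The 4 males lay between 129 and 178 FPKM and both wild females at 458 FPKM or more. The group means were 137 ± 6.64 and 393 ± 191 FPKM (SD, n = 3 each), and the wild male was 1.30 times the laboratory mean. The difference of 0.20 zFPKM was not called (SE 0.110, limma adjusted p = 0.234). It was -0.21 with sex as a covariate and in males only, beside a median of -0.27 over all genes tested in both. Without wild mouse 1, the wild male, Slc25a47 was called higher. Slc25a45, the related gene on chromosome 19, had 11.6, 12.9 and 14.5 FPKM in the laboratory mice and 16.0, 8.13 and 11.5 FPKM in wild mice. Here the wild male was the highest and a wild female the lowest of the 6, and the difference was -0.30 zFPKM (SE 0.176, limma adjusted p = 0.274).

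None of the other members of this mixed group was called. Slc25a46, a protein of the outer mitochondrial membrane involved in its fusion and fission, lay at 2.35 to 2.66 FPKM in the laboratory mice and 6.10 to 7.38 FPKM in wild mice, without overlap. Slc25a34 also did not overlap, at 0.432 to 0.626 and 0.997 to 2.67 FPKM, and Slc25a35 did, at 0.479 to 0.957 and 0.312 to 0.642 FPKM. Their differences were 0.24, 0.31 and -0.41 zFPKM.

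None of the 3 carriers of dicarboxylates, oxodicarboxylates and acylcarnitines was called. Slc25a20, which brings acylcarnitines in for fatty acid oxidation, had 38.3, 34.4 and 29.1 FPKM in the laboratory mice and 61.5, 41.8 and 45.3 FPKM in wild mice. Slc25a10, the exchanger of malate or succinate for phosphate, had 22.6, 26.5 and 23.1 FPKM in the laboratory mice and 82.1, 43.0 and 30.2 FPKM in wild mice. In both genes all wild mice were above all laboratory mice and the wild male was the highest, and in zFPKM the differences were -0.05 and 0.10 (limma adjusted p = 0.860 and 0.731). Slc25a21, the oxodicarboxylate carrier, lay at 2.30 to 3.62 FPKM in the laboratory mice and 8.02 to 9.28 FPKM in wild mice, and was called on the centred log2 scale (difference 0.73, limma adjusted p = 0.0131) but not on zFPKM.

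Carriers of cofactors and of other nucleotides were also without a call on zFPKM, with a median difference of -0.19 over the 7 tested. Slc25a42, a carrier of coenzyme A, lay at 15.3 to 16.5 FPKM in the laboratory mice and 15.7 to 20.2 FPKM in wild mice. Slc25a17, a peroxisomal carrier of cofactors, lay at 12.8 to 17.1 and 13.9 to 18.2 FPKM. Both overlapped between the groups in FPKM. On log2(FPKM + 0.1) before centring, their differences were 0.16 and 0.10 and neither was called (limma adjusted p = 0.427 and 0.656). On the centred log2 scale both were called lower in wild mice, with differences of -0.58 and -0.63 (limma adjusted p = 0.0292 and 0.0190). The median over all genes tested was -0.27 on that scale.

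Slc25a16 and Slc25a26, the S-adenosylmethionine carrier, had ratios of 1.52 and 1.65 between the group means of FPKM and did not overlap. Slc25a51, which brings NAD+ into the matrix, overlapped at 4.41 to 11.5 and 5.86 to 9.01 FPKM. Slc25a36, a pyrimidine nucleotide carrier, lay at 0.553 to 1.22 FPKM in the laboratory mice and 0.200 to 0.559 FPKM in wild mice. Its difference of -0.68 zFPKM did not pass the test (SE 0.384, limma adjusted p = 0.263), with adjusted p from 0.00446 to 0.544 over the alternatives.

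Among the carriers of glutathione and iron, Slc25a39 was the highest of the family by mean FPKM. It imports glutathione into mitochondria, and had 226, 220 and 183 FPKM in the laboratory mice and 392, 352 and 269 FPKM in wild mice. The wild mice were all above the laboratory mice on FPKM, at a ratio of 1.61, but on zFPKM the groups overlapped and differed by -0.02 (SE 0.108, limma adjusted p = 0.941). Slc25a40, its paralog, had 0.451, 0.305 and 0.387 FPKM in the laboratory mice and 1.85, 0.852 and 1.34 FPKM in wild mice. It also did not overlap, at a far lower level, and its difference of 0.39 zFPKM was not called (SE 0.362, limma adjusted p = 0.551).

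The mitoferrins bring iron into mitochondria, Slc25a37 mainly in red cell precursors and Slc25a28 in other cells. Slc25a37 had 4.60, 5.19 and 12.1 FPKM in the laboratory mice and 7.27, 4.61 and 6.71 FPKM in wild mice. Slc25a28 had 8.90, 9.62 and 15.5 FPKM in the laboratory mice and 13.2, 16.4 and 13.2 FPKM in wild mice. Laboratory mouse 3 was the highest of its group for both, the groups overlapped for both, and neither was called (differences -0.30 and -0.13 zFPKM, limma adjusted p = 0.373 and 0.703). Of 7 erythroid genes tested, 6 were lower in wild mice and 0 higher, beside 7.17% and 7.28% of all genes. Among the lower ones, Hbb-bs and Hbb-bt overlapped between the groups on both FPKM and zFPKM. The summed FPKM of the erythroid genes also overlapped, at 1340 to 5135 in the laboratory mice and 724 to 1581 in wild mice. The part of red cell RNA in the values of Slc25a37 and Slc25a38 was not tested.

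The genes related to the uncoupling proteins were all below 5 FPKM and none was called on zFPKM. Slc25a30 had 0.502, 0.565 and 0.172 FPKM in the laboratory mice and 2.83, 4.80 and 2.26 FPKM in wild mice. Slc25a14 had 0.230, 0.0768 and 0.542 FPKM in the laboratory mice and 0.943, 1.21 and 1.37 FPKM in wild mice. Neither overlapped on FPKM. The difference of Slc25a30 was 0.86 zFPKM and did not pass the test (SE 0.329, limma adjusted p = 0.0571), with adjusted p from 0.00207 to 0.728 over the alternatives, and that of Slc25a14 was 0.59 zFPKM (SE 0.388, limma adjusted p = 0.359). Slc25a27 overlapped, at 0.222 to 0.896 and 0.0992 to 0.341 FPKM.

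A ratio of related carriers within a mouse does not depend on how that mouse was scaled, and 7 pairs could be compared this way. The ratio of Slc25a5 to Slc25a4 was 32.8, 25.8 and 13.7 in laboratory mice, against 129, 73.2 and 106 in wild mice. All wild mice were above all laboratory mice, by 2.15 on the log2 scale (two-sided exact permutation p = 0.1, the smallest that 3 against 3 mice can give, adjusted p = 0.35 over the 7 pairs). The ratio of Slc25a39 to Slc25a40 was 501, 722 and 472 in laboratory mice, against 211, 413 and 200 in wild mice. Here all wild mice were below, with a log2 difference of -1.10, and the exact permutation p and adjusted p were the same.

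The ratio of Slc25a13 to Slc25a12 was 18.6, 23.2 and 11.5 in laboratory mice, against 19.7, 17.9 and 17.8 in wild mice. The wild values lay within the range of the laboratory values although both genes had higher FPKM in every wild mouse, and the log2 difference was 0.11 (exact permutation p = 0.9, adjusted p = 0.9). For Slc25a47 over Slc25a45 the ratio was 11.1, 10.8 and 9.79 in laboratory mice, against 11.1, 66.7 and 40.0 in wild mice. The wild male matched the laboratory males and the wild females stood apart (exact permutation p = 0.2, adjusted p = 0.467). The ratios of Slc25a23 to Slc25a25, Slc25a28 to Slc25a37 and Slc25a30 to Slc25a14 overlapped, with exact permutation p from 0.4 to 0.8.

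**Figure D3:**
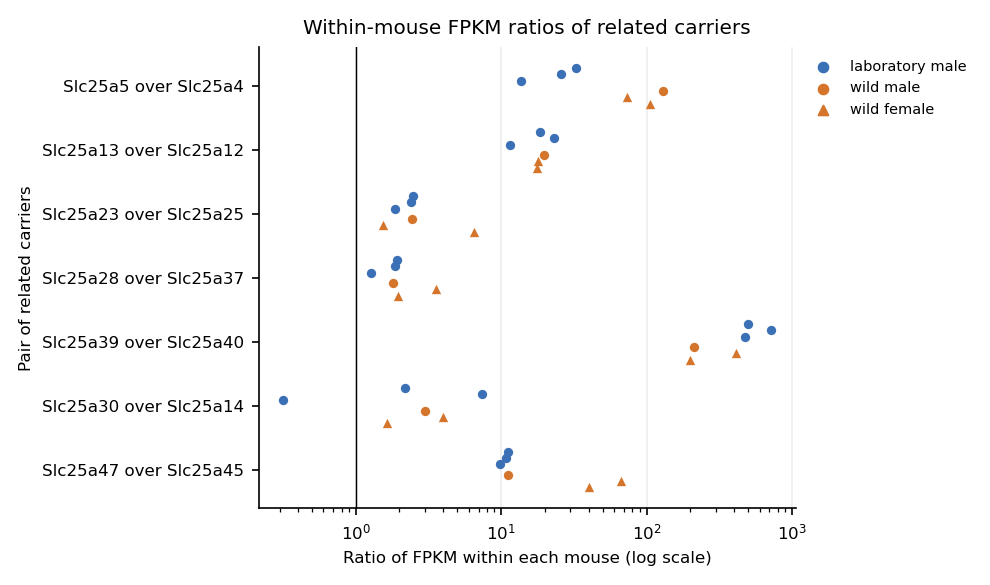
Ratio of FPKM within each mouse (log scale) for 7 pairs of related carriers, with circles for males, triangles for females, blue for laboratory and orange for wild mice; the vertical line is a ratio of 1. The ratio of Slc25a5 to Slc25a4 is higher in all wild mice and that of Slc25a39 to Slc25a40 lower, while Slc25a13 to Slc25a12 overlaps.

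The enzymes that work with these carriers were compared in the same fit, and 10 of 22 were higher in wild mice, 1 was lower, and the median difference was 0.26 zFPKM, beside the 7.28% and 7.17% of all genes given above. Of these 11 calls, only Got1 was kept with sex as a covariate or without the trend, and 0 were kept in males only or with no filter on low values. In the malate-aspartate shuttle, the cytosolic aspartate transaminase Got1 had 8.45 to 17.8 FPKM in the laboratory mice and 146 to 298 FPKM in wild mice, a difference of 1.09 zFPKM (SE 0.136, limma adjusted p = 1.79e-13). The malate dehydrogenases Mdh1 and Mdh2 were higher by 0.58 and 0.59 zFPKM (limma adjusted p = 1.32e-05 and 0.000118). Got2, the mitochondrial transaminase, lay at 79.9 to 98.2 and 258 to 260 FPKM without overlap, but its difference of 0.28 zFPKM was not called (limma adjusted p = 0.0901). Beside Slc25a13, 3 of the 4 enzymes listed for this shuttle therefore passed the test.

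In the urea cycle, Ass1 was the highest of these enzymes, at 864 to 1254 FPKM in the laboratory mice and 2696 to 3381 FPKM in wild mice, and was higher by 0.26 zFPKM (limma adjusted p = 0.0272). Arg1 was lower, with a difference of -0.28 zFPKM, although its FPKM overlapped at 999 to 1460 and 1107 to 1169 (limma adjusted p = 0.0204). Otc and Asl were not called. The call of Ass1 was made in 7 of the 19 alternatives and that of Arg1 in 5.

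Around pyruvate, citrate and acetyl-CoA, Pcx, Acly and Crat were higher by 0.49, 0.66 and 0.50 zFPKM (limma adjusted p = 0.00251, 5.94e-05 and 0.0321), and so was Glud1, the glutamate dehydrogenase, by 0.40 (limma adjusted p = 0.00378). Citrate synthase (Cs), the malic enzyme Me1, Cpt2 and Pck1 were not called, with differences of 0.01, -0.00143, 0.10 and 0.22 zFPKM. Fech, the last enzyme of haem synthesis, was higher by 0.48 (limma adjusted p = 0.0143). Nnt, which makes NADPH in the matrix, had 3.20, 3.48 and 3.60 FPKM in the laboratory mice and 35.7, 43.2 and 43.7 FPKM in wild mice, a difference of 0.99 zFPKM (SE 0.178, limma adjusted p = 1.27e-06). A deletion in Nnt is known in the C57BL/6J substrain, and the labels do not name a substrain. Pck2, the lowest of the list, had 1.74 to 2.25 FPKM in the laboratory mice and 0.893 to 1.01 FPKM in wild mice and was not called.

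Of the proteins that insert carriers into the membrane or form the outer membrane pores, 13 were tested. In wild mice 3 were higher and 2 lower, beside 7.28% and 7.17% of all genes, with a median difference of 0.18 zFPKM. Timm29 and Agk, both of the TIM22 complex that inserts carriers, were higher by 0.59 and 0.96 zFPKM, and so was the receptor Tomm70a, by 0.54 (limma adjusted p = 0.0442, 0.0237 and 0.0169). The small chaperones of the intermembrane space Timm9 and Timm10b were lower, with differences of -0.63 and -0.48 zFPKM (limma adjusted p = 0.000427 and 0.00923). Vdac1, the highest of the list, was not called, with 35.9 to 37.1 FPKM in the laboratory mice and 75.4 to 98.3 FPKM in wild mice.

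Of the mitochondrial transporters and carrier relatives outside the Slc25 names, 14 were tested. In wild mice 3 were higher and 0 lower, beside 7.28% and 7.17% of all genes, with a median difference of 0.19 zFPKM. Both subunits of the mitochondrial pyruvate carrier were among the 3, with Mpc1 at 34.6 to 56.4 FPKM in the laboratory mice and 218 to 292 FPKM in wild mice, and Mpc2 at 114 to 152 and 365 to 433 FPKM. The differences were 0.62 and 0.32 zFPKM (limma adjusted p = 1.06e-05 and 0.0265). Mtch1, a relative of the carriers in the outer membrane, was higher by 0.60 (limma adjusted p = 0.00266). Of the 8 calls in these last lists, 1, Timm10b, was kept with sex as a covariate. None of them was kept without the trend or with no filter on low values. Sfxn4, the lowest, was not called, and the uncoupling proteins Ucp1 and Ucp3 were at 0 in all mice.

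**Figure D4:**
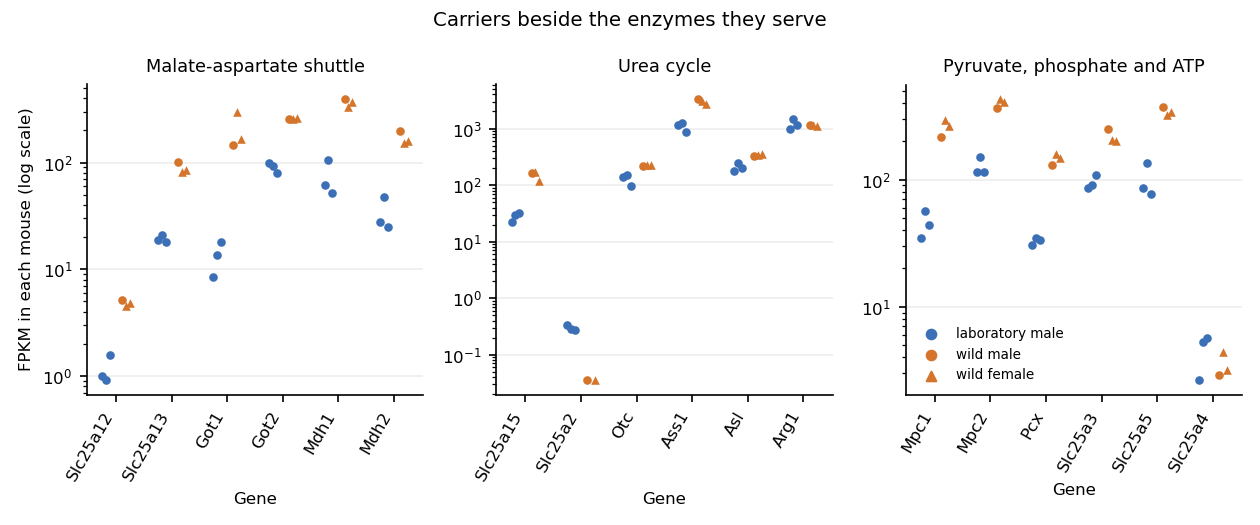
FPKM (log scale) in each mouse for carriers beside the enzymes and transporters of the same pathway, with circles for males, triangles for females, blue for laboratory and orange for wild mice. Slc25a12, Slc25a13, Got1, Got2, Mdh1 and Mdh2 have all wild mice above all laboratory mice, while Arg1 and Slc25a4 overlap; the 0 of Slc25a2 in wild mouse 2 is not drawn.

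The wild male allows males to be set side by side. On FPKM it was above all 3 laboratory males for 26 of the 38 tested carriers (68.4%, beside 51.8% of all genes tested) and below them for 3 (7.89%, beside 24.8%). On zFPKM it was above for 10 (26.3%, beside 15%) and below for 15 (39.5%, beside 43.3%). For the 5 carriers called higher, the FPKM of the wild male was 27.8 times the laboratory mean for Slc25a48, 5.84 for Slc25a15, 5.32 for Slc25a13, 3.75 for Slc25a5 and 3.07 for Slc25a44. Both wild females exceeded all 4 males in FPKM for 8 carriers (21.1%, beside 25%), Slc25a44 and Slc25a47 among them, and were below all males for 3, Slc25a2, Slc25a35 and Slc25a45 (7.89%, beside 6.31%). On zFPKM both females were above all males for 16 carriers (42.1%, beside 32.5%) and below for 0 (0%, beside 1.51%). The 16 included Slc25a5, Slc25a13, Slc25a44 and Slc25a48 of the called carriers. For Slc25a5, Slc25a13 and Slc25a48 this order was seen on zFPKM only, as the wild male had the highest FPKM of all mice. With 1 wild male, the spread among wild males was not measured.

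Transcript length also moved with the difference between the groups. Over the 16504 tested genes with a length, the Spearman correlation across genes of the zFPKM difference with the length of the longest transcript was 0.120, and the median difference ran from -0.19 in the shortest of 10 length classes to 0.09 in the longest. Genes are not independent replicates, so no p is given. Over the 38 carriers the correlation was 0.0594. With the trend of each mouse with length removed, an alternative added after the data were seen, all 6 carriers were still called, among 11 in all.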

How the data were processed

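Liver RNA of 3 laboratory and 3 wild mice was sequenced by the authors as stranded mRNA libraries with single reads of 100 bases, aligned with kalign to the masked mouse genome (GRCm38.p6 per the labels) and quantified with the Tuxedo pipeline. The authors normalised the deposited FPKM for transcript length and depth. The zFPKM score was also deposited, and was derived by the authors from log2 FPKM separately in every mouse. The study's edgeR comparison needs counts and was not repeated. Names with an estimate marked as failed (13) were left out, leaving 47243, and failures are not marked in laboratory mouse 1. A gene entered the test when its zFPKM exceeded -3 in 3 or more of the 6 mice, values under -3 were replaced by -3, and the groups were compared by limma 3.58.1 in R 4.3.3 (lmFit, eBayes with trend) and Benjamini-Hochberg adjustment at 0.05. The trend pooled the spread over genes almost completely, so each SE mainly follows the gene's level. Python 3.11.15 (scipy 1.17.1, pandas 2.3.3, numpy 2.4.6) was used for ratios, correlations and motifs. The fit was tested on simulated data with larger zFPKM shifts than it gave for the called carriers. It was not tested on shifts of their size. Positions, with 1 added to each start, equalled RefSeq for 39 of 40 carriers. FPKM in all mice was given for carriers that were called, the 10 highest by mean FPKM and the members of each pair compared. From the other lists the called, highest and lowest genes were named, and FPKM was given for only some of them. The carriers, lists and pairs were chosen with earlier results of these data known. The values of 1 carrier and 1 marker gene are not reported here, though both enter the counts.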

Additional observations from a re-analysis of the deposited data

How the results depend on the processing

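The count of genes called moved from 2692 to 23 with no filter on low values, 795 with no trend, 1373 with sex as a covariate and 0 in males only (3122 at an unadjusted p under 0.05). It moved to 8252 on log2(FPKM + 1), 8598 on log2(FPKM + 0.1), 8805 on that scale centred on each mouse's median, 5278 on zFPKM centred likewise, 7288 after quantile normalization, 5683 without laboratory mouse 3 and wild mouse 1, and 5056 with the length trend removed. The count of carriers called, 6 in limma, was 0 with no filter (9 at an unadjusted p under 0.05), 0 with sex as a covariate (9), 0 in males only (6), 1 with no trend, 21, 22 and 20 on the 3 log2 scales in the order above, 9 on centred zFPKM, 17 after quantile normalization, 14 without laboratory mouse 3 and wild mouse 1, and 11 with the length trend removed. Leaving out 1 mouse gave 1421 to 2557 genes and 3 to 6 carriers, the lowest of both without wild mouse 3. Of the genes called, 50.4% were higher in wild mice on zFPKM, 83.2% on log2(FPKM + 1), 39.4% on the centred log2 scale and 18.2% with sex as a covariate. The cause of these moves was not tested, except that fewer mice entered where mice were left out. Over 29 named genes and 19 alternatives, 359 of 551 values kept direction and side of the threshold, 170 lost the call, 20 gained it and 2 turned. Both that turned were for Slc25a47 (-0.21 with sex as a covariate and in males only, where the median of all genes tested was -0.27). Slc25a41 and Slc25a54 did not pass the filter, and the ratios of Slc25a15 to Slc25a2 and of pairs with a carrier listed more than once were not tested. No analysis was paired, since each library came from a different mouse and no laboratory mouse was matched to a wild mouse.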

Other observations

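The 7 Slc25 names listed more than once belong in no comparison above, and laboratory mouse 1 has a single entry for each, which is not always the copy on the chromosome. For Slc25a1, the citrate carrier that supplies acetyl-CoA for fatty acid synthesis, the copy on the chromosome had 43.7, 43.5 and 52.0 FPKM in laboratory mice and 94.3, 74.7 and 84.2 FPKM in wild mice. All 3 wild values were above the laboratory values. Slc25a11, the oxoglutarate carrier of the malate-aspartate shuttle, had 9.69 and 9.40 FPKM in laboratory mice 2 and 3 and 29.1, 24.4 and 21.7 FPKM in wild mice. Slc25a32, the carrier of folate and FAD, had 0.989 and 1.13 FPKM in those laboratory mice and 2.36, 5.81 and 4.16 FPKM in wild mice. Slc25a33, which carries pyrimidine nucleotides, had 1.17 and 0.926 FPKM there and 3.08, 1.87 and 1.64 FPKM in wild mice. Slc25a24 did not exceed 0.251 FPKM in the copy on the chromosome and 0.276 FPKM in the other copy. Slc25a18, a glutamate carrier, was at 0 or no more than 0.0317 FPKM, and Slc25a31, the ADP/ATP carrier of the testis, was at 0 in all laboratory mice and at 0.303, 0 and 0.0105 FPKM in wild mice.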
